A study of Homo sapiens with 15 samples.

Results

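The genes described here are the protein-coding genes of human chromosome 19 whose symbol is ZNF followed by a number, the zinc finger genes that make up most of the gene content of several long stretches of that chromosome. GENCODE placed 240 of the 48777 genes in the deposited tables in this group, by symbol, biotype and chromosome. RNA was sequenced on 5 days while H1 cells, a long-established line of human pluripotent stem cells from an embryo, underwent differentiation into cardiac progenitors, with 3 libraries a day and 15 in all. The day 0 cells were pluripotent H1 cells. The study's methods maintain H1 cells on the laminin LN-521 and seed them on LN-521 with LN-221 on day 0. The day 0 labels name no laminin, and 1 table of the study lists LN-521 alone for these libraries. The labels of all later days name both laminins. The day 4 cells were the confluent layer on LN-521 and LN-221 just before induction. Comparisons with day 0 may therefore also hold a change of laminin, which cannot be told apart from the day. From day 4 the cells received CHIR99021, a GSK3 inhibitor, for 24 h in RPMI with B27 lacking insulin, and later IWP2, an inhibitor of Wnt secretion, for 2 days from day 7, so the day 9, day 11 and day 20 libraries all come from cells exposed to both agents (the study's methods name day 7 where the sample labels name day 9). All libraries come from 1 cell line without genetic change, and the study calls the libraries of a day biological replicates. Which of them came from separate differentiations is not given in the sources used here, so each p-value measures the spread between these libraries. By the labels, day 20 replicates 2 and 2_3 carry the same plate number, 2, and the plate numbers 2, 5 and 6 recur across days. Whether the 3 day 20 libraries are equally separate is therefore not known.

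Most ZNF proteins of chromosome 19 carry a run of C2H2 fingers, each of which holds a zinc ion and reads a few bases of DNA, and many also carry a KRAB box at their N terminus. The KRAB box recruits TRIM28 (KAP1), which brings SETDB1, HP1 proteins and the NuRD complex, and the bound DNA then gains the repressive mark H3K9me3. The best known targets are transposable elements, which pluripotent cells keep silent in this way, and the genes themselves multiplied by tandem duplication, so neighbours in a cluster are close relatives. Among the 240 genes the KRAB box letters were found in the translated coding sequence of 190 and not in 50. The proteins had a median of 12 C2H2 fingers (range 1 to 36) and a median length of 589 residues (range 170 to 1379).

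Members less than 1 Mb apart were joined into clusters, and 9 clusters of at least 5 genes held 231 of the 240. The cluster that runs from ZNF101 to ZNF254, over chr19:19668796-24129968 (GRCh38, 4.46 Mb, 37 genes), lies mostly in band 19p12 and is called the 19p12 cluster below. Its promoters are shown first because most of them share a run of letters that is rare over all genes. RefSeq entries of 300 bases, 250 before and 50 after the start, were found for 210 of the 240 genes and for 29 of the 37 in the 19p12 cluster. The letters TCCAATCAGG, which contain the CCAAT box, stood on either strand (CCTGATTGGA on the other) in 26 of those 29 promoters (89.7%), 19 of them with 1 copy and 7 with 2. They stood in 17 of the 181 other matched members (9.39%) and in 0.428% of all 27305 genes with an entry. They were picked because they are the 10 letters most widely shared in this cluster, so the counts are a description and say nothing of which factor binds there. Letters picked in the same way were also shared within other large clusters, so such sharing is not particular to this one. They stood in 54.2% of matched genes in ZNF653 to ZNF791, 47.8% in ZNF565 to ZNF573 and 45% in ZNF575 to ZNF296. In ZNF557 to ZNF846 the share was 42.9% and in ZNF628 to ZNF446 30.8%. Over all genes those letters stood in 0.234% to 0.579%. The median number of CG pairs per 300 bases was 10 in the 19p12 cluster, 22 in the other members and 16 over all genes. The 120 bases before the start of 7 members of the cluster follow, each 5′ to 3′ on the gene's own strand in GRCh38.p14, with TCCAATCAGG in capitals. The first 6 were all called lower on day 20 than on day 0, as given further on, and the last, ZNF91, had the only positive fold change of the 27 members tested in the cluster.
ZNF66, chr19:20776184-20776303, plus strand: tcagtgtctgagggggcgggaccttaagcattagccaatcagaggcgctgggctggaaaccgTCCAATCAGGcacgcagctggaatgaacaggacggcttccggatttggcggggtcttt
ZNF90, chr19:20077880-20077999, plus strand: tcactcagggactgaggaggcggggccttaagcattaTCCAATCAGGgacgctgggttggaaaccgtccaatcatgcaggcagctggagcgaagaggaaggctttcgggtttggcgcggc
ZNF724, chr19:23250395-23250514, minus strand: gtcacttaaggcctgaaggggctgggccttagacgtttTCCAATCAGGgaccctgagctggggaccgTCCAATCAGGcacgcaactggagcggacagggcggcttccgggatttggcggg
ZNF730, chr19:23116905-23117024, plus strand: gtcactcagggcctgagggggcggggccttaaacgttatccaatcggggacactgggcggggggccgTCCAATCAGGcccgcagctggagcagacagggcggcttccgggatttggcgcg
ZNF93, chr19:19900826-19900945, plus strand: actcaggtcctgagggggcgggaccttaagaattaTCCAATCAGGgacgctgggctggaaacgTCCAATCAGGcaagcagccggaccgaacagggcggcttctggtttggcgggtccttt
ZNF100, chr19:21767580-21767699, minus strand: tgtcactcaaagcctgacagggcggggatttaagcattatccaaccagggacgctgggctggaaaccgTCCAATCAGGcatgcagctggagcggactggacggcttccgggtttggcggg
ZNF91, chr19:23395472-23395591, minus strand: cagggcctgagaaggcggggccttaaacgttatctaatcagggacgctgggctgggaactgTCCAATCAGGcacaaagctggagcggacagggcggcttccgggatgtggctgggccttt

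The capitals begin 58 bases before the start in ZNF66 and 59 in ZNF91, and 2 copies are present in ZNF724 and ZNF93. Elsewhere the same letters were found in 14 of 24 matched genes of the ZNF653 to ZNF791 cluster and in 3 of 5 of the ZNF554 to ZNF77 cluster, and in 0 of the remaining members. For comparison, these are 3 members of the ZNF653 to ZNF791 cluster that hold the letters and whose RNA moved in opposite directions, as given further on.
ZNF491, chr19:11798403-11798522, plus strand: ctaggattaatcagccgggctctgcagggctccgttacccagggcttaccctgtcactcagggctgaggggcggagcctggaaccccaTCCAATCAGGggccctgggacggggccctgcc
ZNF441, chr19:11766880-11766999, plus strand: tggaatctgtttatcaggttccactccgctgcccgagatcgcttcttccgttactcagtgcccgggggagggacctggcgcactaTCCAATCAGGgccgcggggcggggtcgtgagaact
ZNF878, chr19:12052962-12053081, minus strand: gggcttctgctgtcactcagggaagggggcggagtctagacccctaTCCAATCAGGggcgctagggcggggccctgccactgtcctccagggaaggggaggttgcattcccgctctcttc
In the ZNF175 to ZNF331 cluster the most widely shared 10 letters were AGGCCCCGCC (GGCGGGGCCT on the other strand), in 16 of 32 matched genes (50%), in 15.2% of the other members and in 3.57% of all genes. They are in capitals in 2 members, ZNF611 and ZNF761, which rose at day 9 and fell by day 20.
ZNF611, chr19:52735045-52735164, minus strand: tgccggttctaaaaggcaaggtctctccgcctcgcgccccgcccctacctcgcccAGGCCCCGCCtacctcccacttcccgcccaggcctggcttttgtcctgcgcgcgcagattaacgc
ZNF761, chr19:53431864-53431983, plus strand: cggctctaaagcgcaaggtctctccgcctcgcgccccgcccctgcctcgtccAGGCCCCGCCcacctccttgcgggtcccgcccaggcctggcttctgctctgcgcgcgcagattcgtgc

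A mean of at least 1 CPM (counts scaled to the library total times edgeR's TMM factor) on at least 1 day was reached by 228 of the 240 genes, and on all 5 days by 217. Scaled to the library total alone, 229 reached it. Just above that limit, on their highest day, stood ZNF556 at 1.01, ZNF534 at 1.3 and ZNF350 at 1.32 CPM, and just below stood ZNF99 at 0.88, ZNF257 at 0.612 and ZNF560 at 0.597 CPM. After the filter on low counts 228 genes were tested, which are the genes past the CPM limit with ZNF560 in place of ZNF556. Library totals ran from 11990302 to 33469703 counts (median 22867831). One day 20 library, replicate 2_3, stood apart, with an RNA integrity number of 6.1 against 8.8 to 10 in the others and counts on 48230 genes against 30886 to 39551. Without it 225 genes passed the CPM limit, since ZNF536, ZNF541 and ZNF556 passed through it alone. Some day 20 counts and some single genes are therefore also given without it. The other day 20 results use all libraries of that day, this one included. Exons of 85 of the 240 genes overlap another gene on the same strand and those of 81 a gene on the other strand. How reads matching several relatives were counted, and whether strand was used, is not given in the sources used here, so the levels of overlapping or near-identical members are uncertain. In these bulk samples fewer cells of a type and less RNA per cell cannot be told apart.

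The summed level of the 240 genes was 7139, 9217 and 7107 CPM in the 3 day 0 libraries and 7489, 7630 and 7297 CPM on day 4. It was 6507, 6591 and 6450 CPM on day 9, and 5988, 5606 and 6245 CPM on day 11. On day 20 it was 4946, 3849 and 5031 CPM, the second of these in replicate 2_3. On this scale all 9 libraries from day 9 on lay below all 6 of days 0 and 4, but as a share of all counts or in TPM the days overlapped, for example 0.702% of counts in day 9 replicate 2 against 0.701% in day 0 replicate 3, and 5043 TPM in day 9 replicate 6_1 against 4061 TPM in day 0 replicate 3. The fraction of uniquely mapped reads was lowest in day 0 replicate 3 (0.35) and day 9 replicate 2 (0.46), against 0.57 to 0.86 in the others. In TPM the overlap came from day 0 replicate 3 alone, which also had the fewest counts. All 3 libraries of day 20 lay below all the rest on the 3 scales. Replicate 2_3 was the lowest of day 20 in CPM and the highest as a share of counts (0.547% against 0.444% and 0.464%) and in TPM. The 19p12 cluster alone went from 1940, 2941 and 2021 CPM on day 0 to 1211, 1297 and 1253 on day 9 and to 686, 728 and 855 on day 20, with no overlap between these days on any of the 3 scales. The other 203 genes together had 5199, 6276 and 5086 CPM on day 0, 5296, 5294 and 5196 on day 9 and 4260, 3121 and 4176 on day 20. These sums are descriptions and were not tested.

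**Figure D1:**
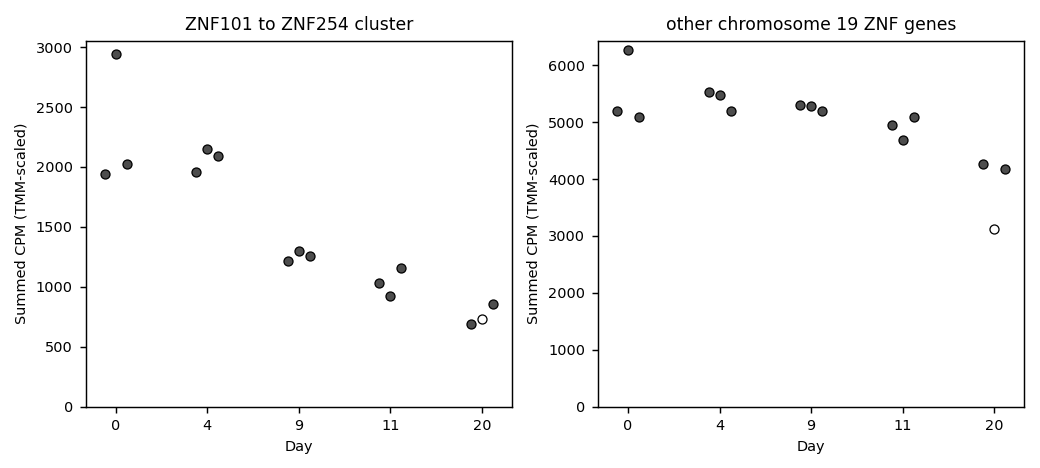
Summed TMM-scaled CPM (y axis, from 0) against day (x axis) for the ZNF101 to ZNF254 cluster on the left and for all other chromosome 19 ZNF genes on the right. Each circle is 1 library and the open circle is day 20 replicate 2_3. The cluster drops from 1940 to 2941 CPM on day 0 to 686 to 855 on day 20, and the other genes stay between 4684 and 6276 until day 11.

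Over all 5 days 127 of the 228 tested genes differed (edgeR quasi-likelihood test with Benjamini-Hochberg adjustment over all genes, threshold 0.05), against 50.4% of the 24767 genes tested. Between day 0 and day 4, the growth of the pluripotent layer with a possible change of laminin, no member passed in either direction. The same held for all genes (0 of 24767 higher, 0 lower, 0% each). At an unadjusted p under 0.05, edgeR gave 287 genes of all 24767 and 0 members, and DESeq2 called 1 gene of all at its adjusted threshold and 0 members. From day 4 to day 9, which spans the induction, 33 members rose and 39 fell, 14.5% and 17.1%, beside 11.9% and 13.2% of all genes. Scaled by library size alone, 52 rose and 30 fell in that step. From day 9 to day 11 1 rose and 2 fell, beside 1.29% and 0.452% of all genes. From day 11 to day 20 2 rose and 27 fell (11.8%), beside 8.39% and 4.26%. Set end to end, day 20 against day 0, 43 members were higher (18.9%) and 74 lower (32.5%), beside 25.4% and 18.2% of all genes. The median log2 fold change of the members in that comparison was -0.09, against 0.17 over all genes. On the deposited TPM values, with limma, 51 members were higher and 55 lower and the member median was 0.15, and under upper-quartile and library-size scaling the median was 0.01 and 0.05.

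The count of falls at day 20 was larger without replicate 2_3, at 35 against day 11 (with 1 rise), and the count against day 0 was 53 higher and 74 lower. Of the 39 genes that fell from day 4 to day 9, 37 were also lower on day 20 than on day 0, which are 37 of that comparison's 74. Of the 33 that rose, 22 were also higher, which are 22 of 43, and 1 was lower. Over all genes tested, 2097 of the 3270 that fell from day 4 to day 9 (64.1%) were also lower on day 20, against 94.9% of the members, and 2246 of the 2939 that rose (76.4%) were also higher, against 66.7%. These comparisons share no libraries, and the difference between members and all genes was not tested. By the day of the highest mean, 65 of the 228 genes peaked on day 0 (28.5%, against 21.2% of all genes tested) and 45 on day 20 (19.7%, against 34.7%).

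ZNF genes on other chromosomes gave similar shares, with 46 higher and 77 lower of 225 tested on day 20 against day 0 (20.4% and 34.2%) and a median of -0.17. The other protein-coding genes of chromosome 19 gave 160 higher and 240 lower of 954, with a median of -0.12. Members with KRAB box letters gave 34 higher and 60 lower of 179 and those without gave 9 and 14 of 49, with medians of -0.07 and -0.15.

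**Figure D2:**
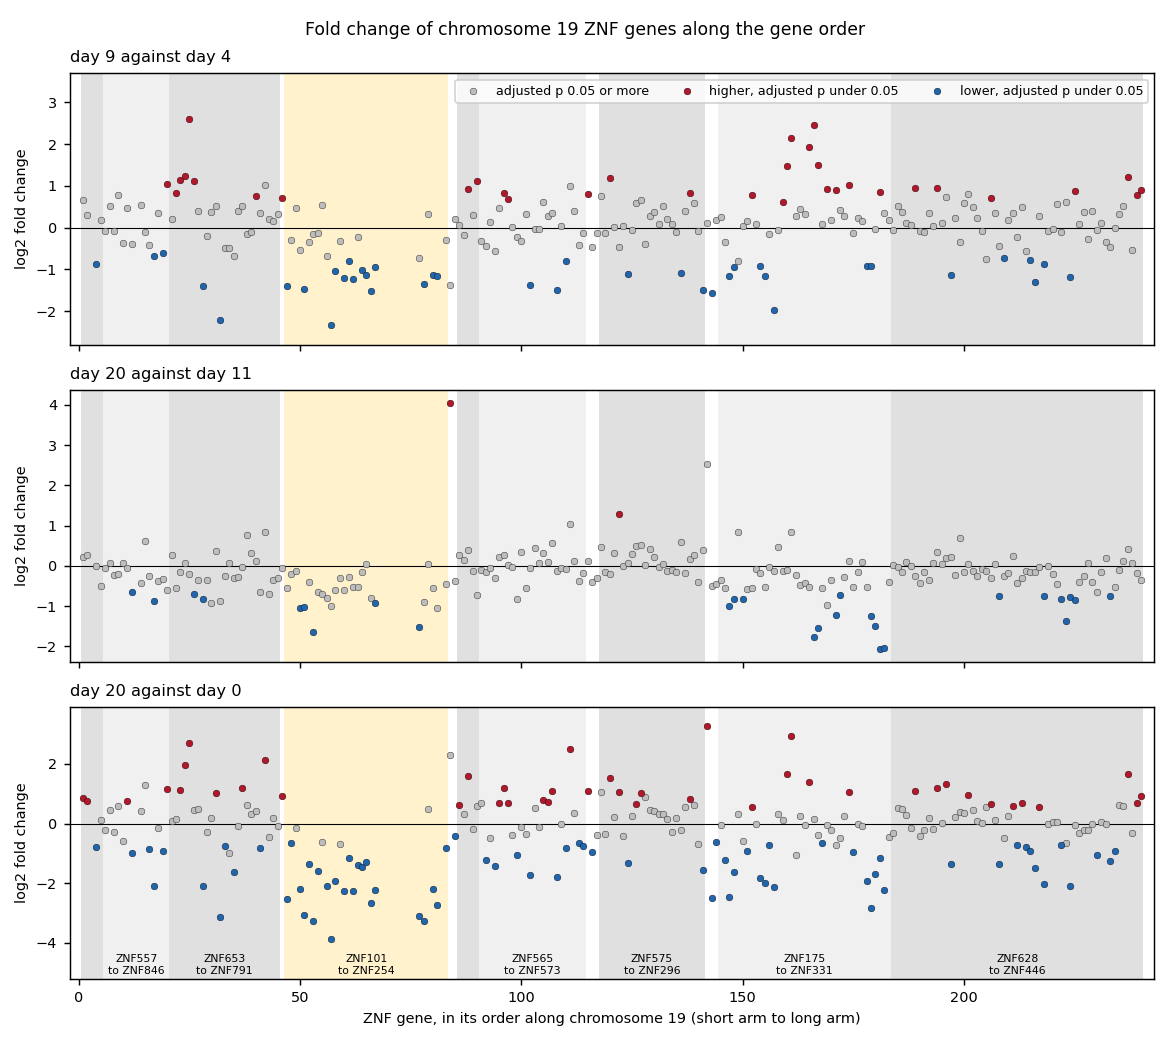
Log2 fold change (y axis) of each tested gene against its order along chromosome 19 (x axis), for 3 comparisons. Red points are higher and blue points lower at an adjusted p under 0.05, grey points missed it, grey bands mark clusters of at least 5 genes and the yellow band marks the ZNF101 to ZNF254 cluster. In the bottom panel 23 of its 27 tested genes are blue and none is red.

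In the 19p12 cluster 27 of 37 genes were tested, and 23 of them were lower and 0 higher on day 20 than on day 0, with a median log2 fold change of -2.09 (range -3.88 to 0.49). The fall had begun by day 9, when 14 were lower than on day 4 and 0 higher, with a median of -0.80. From day 9 to day 11 1 fell, and from day 11 to day 20 5 fell, with a median of -0.59. On day 0, 21 of the 27 had their highest mean. Without replicate 2_3 the counts were 22 lower and 1 higher (ZNF91) against day 0 and 10 lower against day 11. In the 201 tested members outside this cluster, 43 were higher and 51 lower on day 20 than on day 0, with a median of 0.00, and 33 rose and 25 fell from day 4 to day 9. Of the 12 tested 19p12 members whose exons overlap no other gene, 10 were lower and 0 higher on day 20 than on day 0, with a median of -2.07. With the sequencing lane as a block the median of the 27 on day 20 against day 0 was -1.90. Lanes 3 and 4 hold only day 0 replicates 2 and 1, so in that fit day 0 rests on replicate 3 alone. The other alternatives gave 22 to 25 lower on day 20 than on day 0. From day 4 to day 9 library size alone gave 2 higher and 12 lower, the 6 libraries of those days alone 3 and 17, and DESeq2 1 and 14. No other protein-coding gene was tested within this span.

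ZNF66 (chr19:20776304-20809995, plus strand, 14 fingers, no exon overlap) fell most. Its level was 59.5, 98.2 and 58.0 TPM (transcript level scaled to gene length and library) on day 0 and 49.1, 81.3 and 57.6 TPM on day 4. It was 10.2, 14.5 and 13.7 TPM on day 9, 10.7, 9.28 and 12 on day 11, and 2.14, 14.9 and 3.51 on day 20. The first 2 days lay well above the rest, and on day 20 replicate 2_3, at 14.9 TPM, stood above the other 2 libraries. The log2 fold change was -2.33 (SE 0.44, adjusted p = 0.00139) from day 4 to day 9 and -3.88 (SE 0.47, adjusted p = 2.08e-05) from day 0 to day 20, and -4.81 without replicate 2_3.

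ZNF93, a repressor of LINE-1 elements that carry its binding site, had 86.1, 117 and 69.1 TPM on day 0, 80.5, 92.0 and 90.6 on day 4, and 31.0, 35.4 and 31.8 on day 9. It had 25, 21 and 25.8 TPM on day 11 and 8.24, 21.0 and 12.7 on day 20. Every library from day 9 on was below every earlier one. The log2 fold change was -1.46 (SE 0.22, adjusted p = 0.000292) from day 4 to day 9, -1.01 (SE 0.22, adjusted p = 0.0102) from day 11 to day 20, and -3.06 (SE 0.24, adjusted p = 4.46e-07) from day 0 to day 20.

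ZNF90 fell later. It had 77.9, 133 and 61.2 TPM on day 0, 71.4, 79.5 and 87.5 on day 4 and 67.2, 83.2 and 70.0 on day 9, so that these days overlapped. It then had 35.8, 28.8 and 30.4 TPM on day 11 and 10.0, 12.5 and 11.8 on day 20, each day below the one before in every library. Its log2 fold change was -0.15 from day 4 to day 9, -1.25 (SE 0.23, adjusted p = 0.0115) from day 9 to day 11 and -1.64 (SE 0.24, adjusted p = 0.00081) from day 11 to day 20. ZNF90 shares exon sequence with an overlapping gene on its own strand. ZNF730 passed in the last step alone, with 72.7, 79.5 and 59.5 TPM on day 0, 42.7, 44.6 and 56.0 on day 9, 30.7, 22.0 and 24.1 on day 11 and 4.16, 16.3 and 11.2 on day 20, and a log2 fold change of -1.52 from day 11 (SE 0.3, adjusted p = 0.00567).

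ZNF724 had the highest mean TPM of the cluster on day 0, at 145, 261 and 120 TPM, and 130, 159 and 154 on day 4. It had 55.0, 55.2 and 68.1 TPM on day 9, 40.4, 35.6 and 34.4 on day 11 and 11.6, 40.0 and 19.7 on day 20. The log2 fold change was -1.34 (SE 0.3, adjusted p = 0.00491) from day 4 to day 9 and -3.27 (SE 0.32, adjusted p = 3.83e-06) from day 0 to day 20. ZNF100 went from 50.2, 58.1 and 37.1 TPM on day 0 to 14.6, 18.6 and 16 on day 9 and 4.04, 20.1 and 6.89 on day 20, a log2 fold change of -2.66 from day 0 (SE 0.34, adjusted p = 3.47e-05). In ZNF724 and ZNF100 the day 20 replicate 2_3 was again the highest of its day.

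The other 17 called members of the cluster ranged from -0.65 (ZNF14) to -2.74 (ZNF681) in log2 fold change on day 20 against day 0. The 4 tested genes of the cluster that were not called lower on day 20 than on day 0 were ZNF506 (log2 fold change -0.14), ZNF737 (-0.63), ZNF430 (-0.67) and ZNF91 (0.49). ZNF91, a 31-finger repressor of SVA retrotransposons, had 54.4, 67.0 and 46.4 TPM on day 0, 51.7, 59.3 and 56.6 on day 4 and 61.3, 76.0 and 76.8 on day 9. It had 77.6, 86.4 and 83.6 TPM on day 11 and 88.7, 82.9 and 111 on day 20. In TPM all 3 day 20 libraries were above all 3 of day 0. The log2 fold change of ZNF91 was 0.49 (SE 0.22, adjusted p = 0.0873), and 0.71 (adjusted p = 0.00372) without replicate 2_3, with a range of adjusted p over all alternatives of 0.00372 to 0.441. ZNF91 and ZNF66 both hold 1 copy of the shared promoter letters at nearly the same distance from the start, printed above.

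**Figure D3:**
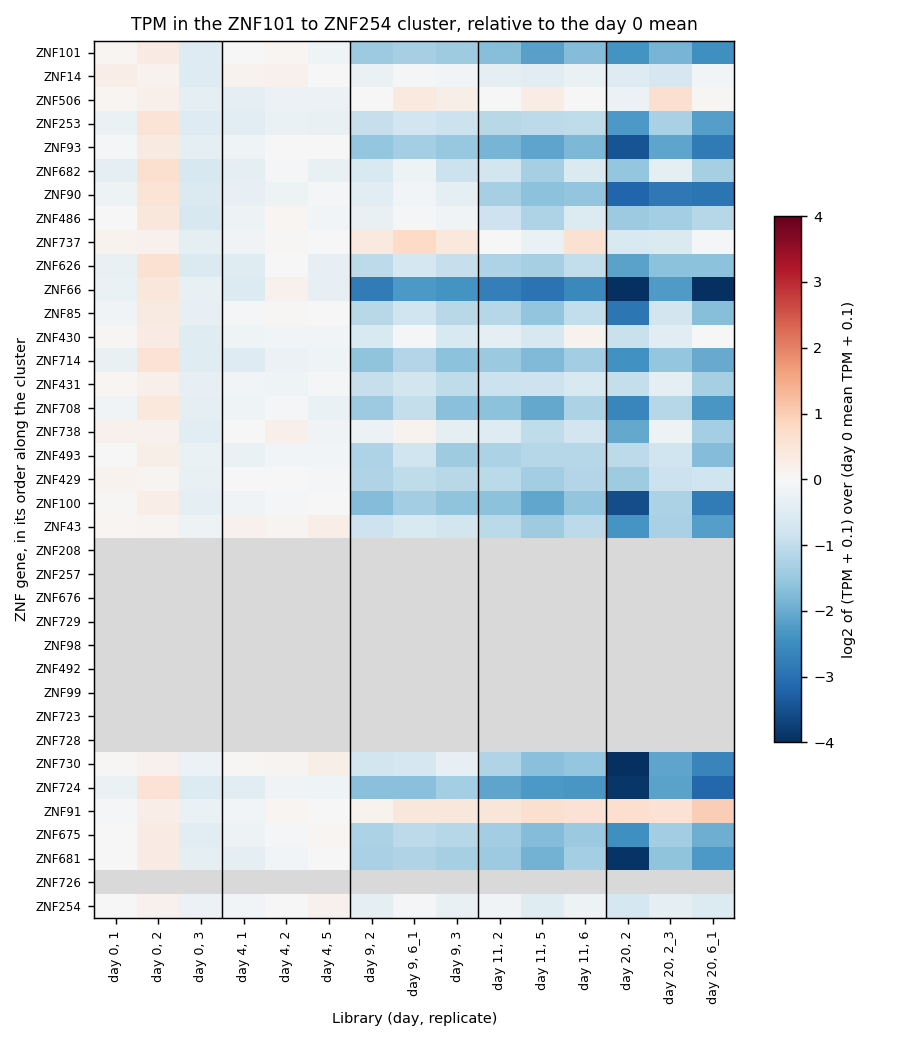
Each row is a gene of the ZNF101 to ZNF254 cluster in its order along the chromosome and each column a library by day and replicate. Colour is log2 of TPM plus 0.1 relative to the day 0 mean plus 0.1, blue for lower and red for higher, and grey rows were not tested. Most rows turn blue from day 9, ZNF91 turns red, and 9 neighbouring rows are grey.

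Of the 10 members of the cluster that were not tested, 9 are neighbours. From ZNF208 to ZNF728 (chr19:21932958-23003176, 1.07 Mb) lie ZNF208, ZNF257, ZNF676, ZNF729, ZNF98, ZNF492, ZNF99, ZNF723 and ZNF728, with ZNF43 and ZNF730, both expressed, on either side. Over the 14 libraries other than day 20 replicate 2_3, each of the 9 had 1 to 9 counts in total, and in that 1 library each had 12 to 47. The tenth, ZNF726, had 2 and 28 counts. Its neighbours ZNF681 and ZNF254 had day 0 means of 19.2 and 32.4 TPM. A low count of these genes in 14 libraries does not show that they are off, and what sets replicate 2_3 apart was not tested.

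The shared promoter letters can be set beside the direction of change as a description. Of the 23 tested 19p12 members with the letters, 20 were lower and 0 higher on day 20 than on day 0, with a median log2 fold change of -2.21. The 1 tested 19p12 member whose matched promoter lacks the letters was also called lower, with a log2 fold change of -1.47. Within the cluster the letters and the position therefore cannot be told apart. Of the 16 tested members elsewhere with the letters, 5 were higher and 4 lower, with a median of 0.14. Of the 163 tested members elsewhere without them, 36 were higher and 40 lower, with a median of 0.03.

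In the ZNF653 to ZNF791 cluster (chr19:11483427-12640098, 25 tested), 6 members were higher and 5 lower on day 20 than on day 0, with a median of 0.17, and 6 rose and 2 fell from day 4 to day 9. ZNF491 rose most. It had 0.808, 0.674 and 0.85 TPM on day 0 and 1.08, 0.83 and 0.535 on day 4. It had 4.21, 6.28 and 5.18 TPM on day 9, 6.97, 5.97 and 6.06 on day 11 and 4.04, 10.3 and 5.33 on day 20. All of these lay above every library of days 0 and 4, while days 9, 11 and 20 overlapped. The log2 fold change was 2.61 (SE 0.35, adjusted p = 9.43e-05) from day 4 to day 9 and 2.71 (SE 0.35, adjusted p = 3.78e-05) from day 0 to day 20. Its neighbour ZNF441 went from 3.22, 1.9 and 3.04 TPM on day 0 to 8.55, 16.2 and 14.9 on day 20, a log2 fold change of 1.96 (SE 0.32, adjusted p = 0.000264). ZNF878, further along the same cluster and also with the letters, moved the other way.

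ZNF878 had 19.9, 18.2 and 9.96 TPM on day 0, 16.5, 23.2 and 18.2 on day 4, 3.27, 5.17 and 4.37 on day 9 and 1.58, 4.26 and 1.17 on day 20. Its log2 fold change was -2.22 (SE 0.35, adjusted p = 0.000343) from day 4 to day 9 and -3.15 (SE 0.37, adjusted p = 1.47e-05) from day 0 to day 20, and an overlapping gene lies on its strand. ZNF69 fell with it, at -1.40 and -2.11 in these comparisons. ZNF709 was called higher on day 20 than on day 0 (2.14, SE 0.69, adjusted p = 0.0208), but its day 20 values were 0.395, 4.29 and 0.747 TPM, and without replicate 2_3 the log2 fold change was 0.84 (adjusted p = 0.232).

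**Figure D4:**
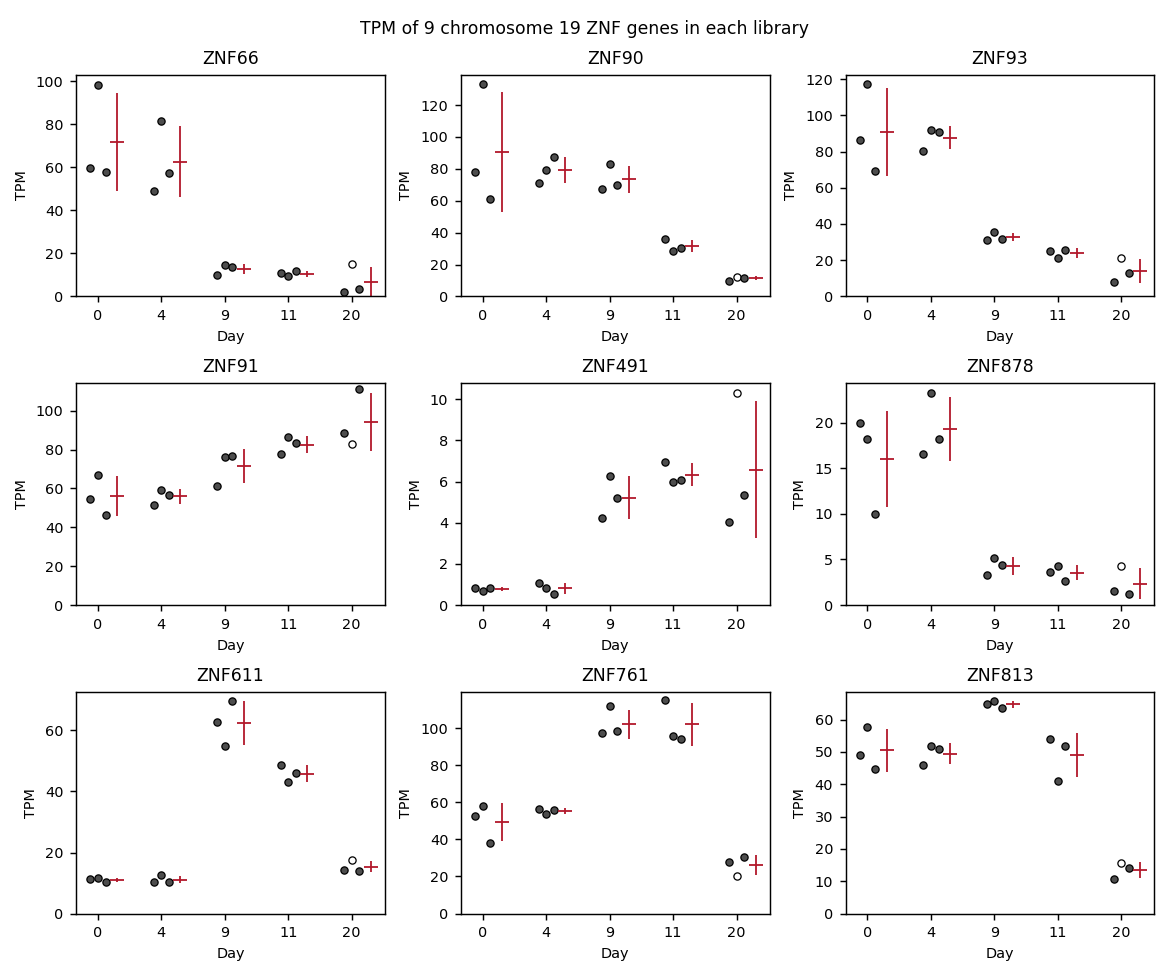
TPM (y axis, from 0) against day (x axis) for 9 genes, with 1 circle per library, the open circle for day 20 replicate 2_3, and the mean with its SD over 3 libraries in red beside them. ZNF66, ZNF90, ZNF93 and ZNF878 go down, ZNF91 and ZNF491 go up, and ZNF611 and ZNF761 are highest on days 9 and 11.

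The ZNF175 to ZNF331 cluster on the long arm (chr19:51571283-53580269, 2.01 Mb, 39 tested) held most of the members that rose early and fell late. From day 4 to day 9, 11 rose and 7 fell, with a median of 0.19. From day 11 to day 20, 0 rose and 11 fell, with a median of -0.52, and on day 20 against day 0, 5 were higher and 15 lower, with a median of -0.45. Without replicate 2_3 the late counts were 0 higher and 10 lower. The late falls numbered 4 in the 6 libraries of days 11 and 20 alone and 7 with lane as a block. With the plate number as a block they numbered 0, beside 1 fall over all genes. Of the 228 members, 6 rose from day 4 to day 9 and fell from day 11 to day 20, and ZNF611, ZNF600, ZNF761 and ZNF888 of this cluster are 4 of them, with ZNF440 and ZNF587 of other clusters.

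ZNF611 (chr19:52702813-52735073, minus strand, no exon overlap) had 11.4, 11.5 and 10.2 TPM on day 0 and 10.3, 12.5 and 10.4 on day 4. It had 62.8, 55.0 and 69.6 TPM on day 9, 48.6, 43.0 and 45.9 on day 11 and 14.4, 17.4 and 14 on day 20. Days 9 and 11 did not overlap with any other day. The log2 fold change was 2.47 (SE 0.18, adjusted p = 4.56e-07) from day 4 to day 9, -1.76 (SE 0.18, adjusted p = 0.000117) from day 11 to day 20, and 0.16 (adjusted p = 0.469) from day 0 to day 20. ZNF600, its neighbour, had 9.68, 8.27 and 9.54 TPM on day 4, 28.1, 28.6 and 22.6 on day 9, 23.6, 12 and 22 on day 11 and 7.5, 7.37 and 7.06 on day 20, with log2 fold changes of 1.49 (SE 0.26, adjusted p = 0.000831) and -1.55 (SE 0.26, adjusted p = 0.00225).

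ZNF761 had 56.4, 53.7 and 56.0 TPM on day 4, 97.2, 112 and 98.6 on day 9, 115, 95.7 and 94.1 on day 11 and 28.0, 20.0 and 30.4 on day 20. It rose by 0.85 on the log2 scale at day 9 (adjusted p = 0.0167) and changed by -2.07 from day 11 to day 20 (SE 0.25, adjusted p = 0.000214). It ended below day 0 (-1.15, adjusted p = 0.00146) and overlaps TPM3P9 on its own strand. ZNF813 beside it had 53.9, 41.1 and 51.9 TPM on day 11 and 10.7, 15.6 and 14.1 on day 20, a log2 fold change of -2.04 (SE 0.19, adjusted p = 0.000107).

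Other genes of the ZNF175 to ZNF331 cluster kept their day 9 change. ZNF83 had 14.4, 13.8 and 14.7 TPM on day 4, 58.0, 70.8 and 40.4 on day 9 and 33.9, 41.4 and 43.0 on day 20, with log2 fold changes of 1.94 from day 4 to day 9 (SE 0.23, adjusted p = 4.34e-05) and 1.38 from day 0 to day 20. ZNF480 went the other way, from 65.3, 96.1 and 72.1 TPM on day 4 to 17.4, 24.6 and 19.6 on day 9 and 24.7, 33.8 and 16.5 on day 20, with a log2 fold change of -1.97 at day 9 (SE 0.27, adjusted p = 0.00012).

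**Figure D5:**
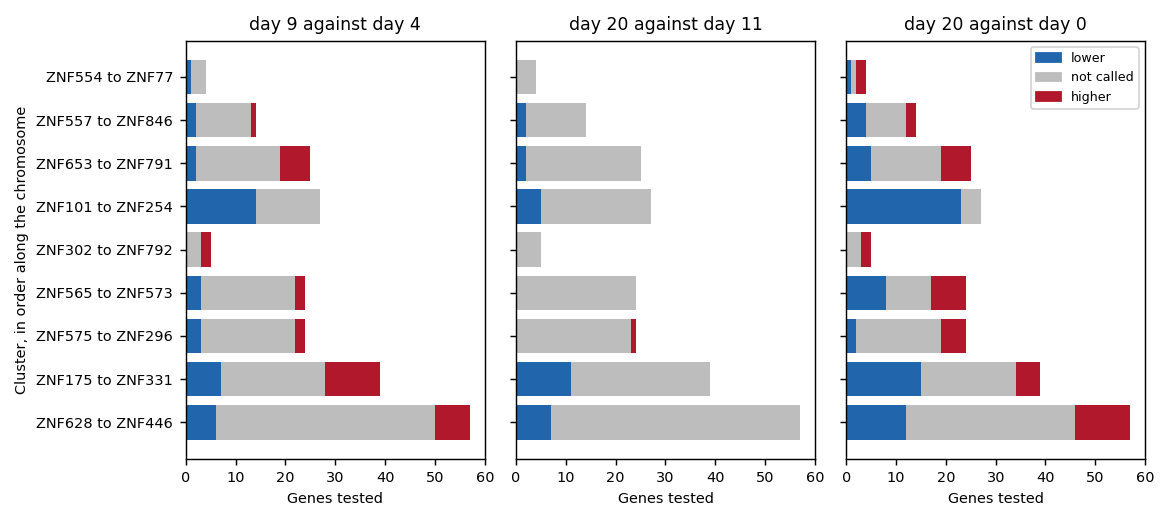
Number of tested genes (x axis) in each cluster of at least 5 genes (y axis, in chromosome order) that were lower (blue), not called (grey) or higher (red) at an adjusted p under 0.05, for 3 comparisons. The ZNF101 to ZNF254 bar has 23 lower of 27 on day 20 against day 0, and the ZNF175 to ZNF331 bar has 11 lower of 39 on day 20 against day 11.

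The remaining clusters moved less in one direction on day 20 against day 0. The ZNF557 to ZNF846 cluster (14 tested) had 2 higher and 4 lower, and ZNF565 to ZNF573 (24 tested) had 7 and 8. The ZNF575 to ZNF296 cluster (24 tested) had 5 higher and 2 lower with a median of 0.31, the ZNF302 to ZNF792 cluster (5 tested) 2 and 0, and ZNF554 to ZNF77 (4 tested) 2 and 1. The ZNF628 to ZNF446 cluster at the end of the long arm (57 tested) had 11 higher and 12 lower with a median of 0.03, and 0 higher and 7 lower from day 11 to day 20. Among the 27 tested non-ZNF coding genes within that last span, 5 were higher and 2 lower on day 20 than on day 0.

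Rises late in the course were few. ZNF404 had 4.19, 4.35 and 3.22 TPM on day 11 and 10.5, 14.4 and 8.33 on day 20, a log2 fold change of 1.30 (SE 0.28, adjusted p = 0.00877), and 1.27 (adjusted p = 0.0098) without replicate 2_3. ZNF536 was called higher from day 11 to day 20 (4.06, SE 1.04, adjusted p = 0.0209) on 0.0395, 0.112 and 0.0185 TPM against 0.149, 3.31 and 0.39, and without replicate 2_3 it was not (2.24, adjusted p = 0.109). The call for ZNF541 on day 20 against day 0 (3.26, adjusted p = 0.0371) was also lost without that library (1.09, adjusted p = 0.42). ZNF540 kept its call, from 0.235, 0.391 and 0.24 TPM on day 0 to 1.35, 4.03 and 1.3 on day 20, a log2 fold change of 2.5 (SE 0.46, adjusted p = 0.00061), and 2.04 without replicate 2_3. From day 9 to day 11, ZNF547 rose (1.53, SE 0.33, adjusted p = 0.0261) from 1.13, 1.49 and 0.796 to 3.39, 3.13 and 3.54 TPM and ZNF578 fell (-1.86, SE 0.42, adjusted p = 0.0357) from 4.39, 3.77 and 5.72 to 1.33, 1.21 and 1.42 TPM. Adjusted p over the alternatives ranged from 0.000387 to 0.18 for ZNF547, which overlaps TRAPPC2B, and from 0.00029 to 0.176 for ZNF578.

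By mean TPM over all libraries the highest members were ZNF146, ZNF121, ZNF581, ZNF724 and ZNF460. ZNF146, which consists of little more than its 10 fingers, had 262, 355 and 204 TPM on day 0 and 144, 124 and 152 on day 20, a log2 fold change of -1.22 (SE 0.23, adjusted p = 0.000699). ZNF121 had 252, 287 and 178 TPM on day 0, 150, 151 and 151 on day 9, 111, 129 and 95.3 on day 11 and 61.2, 78.8 and 65.3 on day 20, a log2 fold change of -2.10 from day 0 (SE 0.19, adjusted p = 1.76e-06). ZNF460 had 55.8, 59.4 and 47.4 TPM on day 0 and 130, 58.0 and 75.5 on day 20, and ZNF581, which overlaps CCDC106 and ZNF580, had 132, 64.0 and 93.1 and then 98.5, 23.4 and 122. For both of these the groups overlapped, and neither passed the test (0.47, adjusted p = 0.215 and -0.41, adjusted p = 0.525).

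Of 6 members known to bind transposable elements or, for ZNF274, the 3′ ends of ZNF genes, 5 were tested. On day 20 against day 0, 1 was higher (ZNF534) and 2 lower (ZNF93 and ZNF649), and without replicate 2_3 ZNF91 also passed as higher. ZNF649 had 70.9, 66.1 and 49.4 TPM on day 0, 28.4, 26.5 and 37.5 on day 9 and 12.9, 20.3 and 9.26 on day 20, a log2 fold change of -2.48 (SE 0.22, adjusted p = 1.39e-06), and it overlaps ZNF577 on its strand. ZNF534 had 0.22, 0.11 and 0.236 TPM on day 0 and 1.18, 2.88 and 1.44 on day 20, a log2 fold change of 2.93 (SE 0.63, adjusted p = 0.0019). ZNF274 had 20.5, 20.1 and 13.3 TPM on day 0 and 26.6, 17.0 and 19.6 on day 20, with a log2 fold change of 0.00 (SE 0.23, adjusted p = 0.993). ZNF676, in the run of genes with almost no counts, was not tested.

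Of 10 genes of the corepressor machinery that KRAB boxes recruit, 1 was higher and 6 lower on day 20 than on day 0. The shares of all genes were 25.4% higher and 18.2% lower, and the median log2 fold change of the 10 was -0.66. From day 4 to day 9, 1 of the 10 was higher and 0 lower, with a median of 0.09. In that step 11.9% of all genes were higher and 13.2% lower. The values that follow are for day 20 against day 0. TRIM28, the scaffold itself, had 923, 1204 and 805 TPM on day 0 and 434, 201 and 393 on day 20, the 201 in replicate 2_3, a log2 fold change of -1.72 (SE 0.33, adjusted p = 0.000757). The deacetylases HDAC1 (-1.05) and HDAC2 (-0.95), the HP1 genes CBX1 (-0.84) and CBX5 (-0.65) and the SETDB1 partner ATF7IP (-0.66) were also lower, and the NuRD helicase CHD3 was higher (1.87, adjusted p = 0.00798). SETDB1, the H3K9 methyltransferase, had a log2 fold change of 0.01 (adjusted p = 0.981), CBX3 -0.38 and CHD4 -0.16, none of which passed.

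Of 10 further genes of H3K9 methylation, DNA methylation and the HUSH complex, 7 were lower and 0 higher on day 20 than on day 0. The shares of all genes were 18.2% lower and 25.4% higher, and the median of the 10 was -1.31. The 7 were SUV39H1 (-1.67), SUV39H2 (-1.62), EHMT1 (-1.24), EHMT2 (-1.38), MORC2 (-1.09), the maintenance DNA methyltransferase DNMT1 (-1.48) and its partner UHRF1 (-2.15). The HUSH subunits TASOR (0.23), MPHOSPH8 (-0.20) and PPHLN1 (-0.20) did not pass in that comparison. From day 4 to day 9, 6 of the 10 were lower and 0 higher, with a median of -0.70, beside 13.2% and 11.9% of all genes. MPHOSPH8 was among those lower in that step (-0.81, SE 0.18, adjusted p = 0.00378).

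The makeup of the cultures moved over the same days. The summed TPM of 6 pluripotency markers (POU5F1, NANOG, LIN28A, TDGF1, DPPA4 and SALL4) ranged from 4173 to 6317 on day 0, 1938 to 2309 on day 9, 1010 to 1413 on day 11 and 89.3 to 164 on day 20. All 6 were lower on day 20 than on day 0. The summed TPM of 7 cardiomyocyte genes (among them TNNT2, MYH6 and NKX2-5) went from 14.4 to 17.1 on day 0 to 438 to 1629 on day 9 and 5862 to 25272 on day 20. On day 20 7 endoderm genes summed to 722 to 21651 TPM (5.89 to 13.4 on day 0) and 5 mesenchymal genes to 1109 to 21724 (128 to 259 on day 0). The 4 endothelial genes summed to 96.4 to 559 TPM on day 20, which overlapped the 157 to 319 of day 0. KDR and TEK made up most of these sums, and neither was called on day 20 against day 0. PECAM1 (log2 fold change 3.99, adjusted p = 0.00286) and CDH5 (4.53, adjusted p = 0.003) were called higher, with day 20 means of 3.04 and 5.76 TPM. The 4 neural genes summed to 33.4 to 305 TPM on day 20, against 3.1 to 24.9 on day 0 and 18.8 to 47.5 on day 4. On day 20 PAX6, SOX1 and NEUROG2 were highest in replicate 2_3, at 6.86, 2.78 and 7.25 TPM. STMN2 was highest in replicate 6_1, at 304 TPM. The 19p12 sum in the 3 day 20 libraries was 367, 644 and 474 TPM. The part of these cell types in the ZNF gene changes was not tested.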

How the data were processed

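Total RNA libraries (Ribo-Zero, stranded, paired 150 base reads) were aligned by the authors with STAR 2.5.2b to GRCh38 with Ensembl 79 genes and counted with featureCounts 1.5.1, and ribosomal and mitochondrial genes were left out. Raw counts per gene and TPM values computed by the authors from them were deposited and used here, with the RNA integrity score and the fraction of uniquely mapped reads that the authors listed per library in a deposited sample table. The strand and multi-mapping settings are not given in the sources used here. Genes were matched to GENCODE 44, and 1905 of 48777 were not found there. Counts were tested with edgeR 4.0.16 (R 4.3.3), using TMM, filterByExpr (minimum count 10, minimum total 15) and the robust quasi-likelihood F test, in one fit of all 15 libraries with one mean per day. P-values were two-sided and adjusted by Benjamini-Hochberg over all 24767 genes, with a threshold of 0.05. TPM values give levels only. Totals of 11990302 to 33469703 counts set the precision. DESeq2 1.42.0, limma 3.58.1 on log2(TPM + 1) and log2(TPM + 0.1), other normalizations, no filter, 6 libraries alone, blocks and leaving out each library were alternatives. The members and gene lists were chosen with earlier results of these data known. Genes named per comparison were the 5 largest called rises and falls whose replicates did not overlap, the 5 highest by mean TPM, and the transposon-binding list. Others, including ZNF14, ZNF69, ZNF681, ZNF541, ZNF888, ZNF440 and ZNF587, were chosen after their values were seen. On simulated counts for day 11 against day 9 (24767 genes, 100 changed 2-fold and 100 changed 4-fold), edgeR recovered 9 and 57 and DESeq2 21 and 68, and 1.49% and 20.5% of their calls were false.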

Additional observations from a re-analysis of the deposited data

How the results depend on the processing

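Counts of called members moved with several choices. From day 4 to day 9 the balance turned, from fewer rises than falls (33 and 39) to more under upper-quartile scaling (42 and 38), DESeq2 (43 and 40), library size alone and the 6 libraries alone, and the sign of the member median on day 20 against day 0 also depended on the scaling. The ranges without one library cover the libraries of the 2 days compared, unless stated. Higher from day 4 to day 9 (33 members) became 52 with library size alone (30 lower), 17 with no filter, 66 in the 6 libraries alone (53 lower), 15 at adjusted p under 0.01, 14 when a log2 change of 1 or more was also asked for, and 16 to 26 without one library, with 20, 16 and 17 without day 4 replicates 1, 2 and 5 and 19 and 21 without day 9 replicates 6_1 and 3. Lower in that step was 29 to 33 without one library. Over all 15 libraries left out in turn, the counts were 16 to 46 higher and 29 to 45 lower, the highest of both without day 20 replicate 2_3. From day 9 to day 11 the 1 rise became 0 with upper-quartile scaling, library size alone, no filter, 6 libraries, lane as a block, both limma fits and adjusted p under 0.01, and 0 to 1 without one library. The 2 falls became 1 with upper-quartile scaling, library size alone, lane and both limma fits, 0 at 0.01, and 0 to 2 without one library (0 to 3 over all 15). From day 11 to day 20 the 2 rises became 1 with no filter, lane and 0.01, 0 in 6 libraries, and 1 to 4 without one library. The 27 falls became 5 in 6 libraries, 17 with lane, 13 in both limma fits, 14 at 0.01, 12 with a log2 change of 1 or more, and 16 to 35 without one library, with 16 without day 11 replicate 6. Higher on day 20 than on day 0 (43) became 22 with no filter, 18 in 6 libraries (52 lower), 6 with lane, 25 at 0.01, 24 with a log2 change of 1 or more, and 28 to 53 without one library, with 28 without day 0 replicate 3. With limma on log2(TPM + 1) the split was 51 higher and 55 lower, and on log2(TPM + 0.1) 52 and 55. Lower on day 20 than on day 0 (74) became 41 with lane, and 63 to 75 without one library (63 to 77 over all 15). Members that differ on any day (127) were 109 to 141 without one library. Lane as a block was chosen after seeing the data. In that fit day 0 rests on replicate 3 alone, since lanes 3 and 4 hold only day 0 replicates 2 and 1, which limits its counts against day 0.

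The plate number was tried as a replicate block from day 9 to day 11 and from day 11 to day 20. The correlations of deviations between libraries of one plate were 0.10 and 0.30, and then -0.14, 0.01 and 0.35. Those of the other pairs ran from -0.32 to 0.28, and then from -0.43 to 0.20. The plate 6 pair had the highest value in each step, and the other pairs of one plate lay within the range of the rest. With so few pairs, whether the plate pairs the libraries is not settled. The block gave 1 rise and 8 falls of 227 members in the first step, beside 1171 rises and 800 falls of all 20679 genes. In the second step it gave 0 rises and 0 falls of 226 members, beside 2 and 1 of all 21398 genes.

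Of the alternatives for the 30 results on single named genes, 397 kept the call, 57 lost it and 0 reversed. The median over all genes on day 20 against day 0 was 0.17, and 0.34 with library size alone, so directions near 0 depend on the scaling. Genes with a few counts, such as ZNF534 and ZNF536, are limited by depth.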
